A study of Rattus norvegicus with 60 samples.

Results

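The expression of 10 genes of brain endothelial cells and the blood-brain barrier was followed across the ageing rat hippocampus: Cldn5, Pecam1, Flt1, Kdr, Tek, Egfl7, Ctla2a, Slc2a1, Abcb1a and Vwf. They were taken by gene symbol from the probe annotation of an Illumina rat bead array, and Ctla2a by its probe, which the file lists under an older predicted name (RGD1565540_predicted). Of the 10 genes, 7 had a probe, 1 each, among the 22523 probes of the array (21404 gene symbols), and Pecam1, Kdr and Abcb1a were not analysed here. RNA came from F344BN F1 hybrid rats, a cross of the Fischer and Brown Norway strains, with 60 samples in 12 groups. Each group was a region (CA1, CA3, dentate gyrus (DG) or whole hippocampus) from adult rats of 12 months or from aged rats of 24 months labelled intact or impaired. CA1, CA3 and DG had 4 arrays in each of the 3 groups, and whole hippocampus had 6 adult, 9 intact and 9 impaired arrays. The labels named no treatment and did not say which measure made a rat intact or impaired. Nothing tied the arrays to separate rats, so the p-values reflect sample-to-sample spread alone, and part of it may be technical.

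The blood-brain barrier is the wall of the brain's capillaries. Its endothelial cells are sealed to one another by tight junctions, take up glucose and other nutrients through carriers, and pump many drugs and toxins back into the blood. Growth factor receptors of the VEGF and angiopoietin families keep these vessels in place, and vessel wall proteins such as von Willebrand factor link them to clotting.

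Intensities are given on a log2 scale after background correction and quantile normalization. A probe was called detected on an array at a detection p-value under 0.01. The intensity of the dimmest detected probe, the detection floor, had a median of 5.71 over the 60 arrays. Cldn5, the main tight junction claudin of brain endothelium, and Vwf, which codes for von Willebrand factor, were detected on 60 of 60 arrays. Tek, the angiopoietin receptor Tie2, was detected on 39 arrays. Ctla2a, which in the mouse codes for an inhibitor of cathepsin proteases, was detected on 37. Egfl7, a factor that endothelial cells secrete, was detected on 35. The probes of Flt1, a VEGF receptor, and Slc2a1, the glucose carrier of the barrier, were detected on 4 and 0 arrays. The values of those probes give only an upper bound on signal, and neither passed the detection filters of the reported tests.

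Other endothelial markers were detected in every region. Emcn was detected on all 60 arrays, with regional means between 8.33 in DG and 9.12 in CA1. Sox17 was detected on all but 1 array. The probes of Cdh5, Cd34 and Robo4 were detected on none. In bulk tissue, fewer endothelial cells and less RNA per cell cannot be told apart.

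A single array stood apart before any comparison. On CA1 adult replicate 4, 22.22% of probes were detected, against 40.64% to 47.21% on the other 59 arrays. Its Wfs1 intensity, a marker of CA1 pyramidal neurons, was 6.43 and not detected, against 9.65 to 10.34 on the other 11 CA1 arrays. Its Egfl7 was 8.83 against 5.81 to 7.31, and its Vwf was 10.33 against 8.16 to 9.21. These were high only after background correction and normalization. The raw signals on that array were 131.7 for Egfl7 and 421.6 for Vwf, against 129.4 to 198.9 and 503.1 to 743 on the other CA1 arrays. The detection floor of that array was 8.07. Its Cldn5 (10.04 against 10.64 to 11.26) and Tek (4.59 against 5.3 to 6.26) lay below all other CA1 arrays. Its Ctla2a was 7.05, the highest of all arrays, yet not detected. The members' CA1 differences with age and between subregions are therefore given with and without it. In whole hippocampus, adult replicate 6 was set apart by its choroid plexus genes, as described with the results there.

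**Figure D1:**
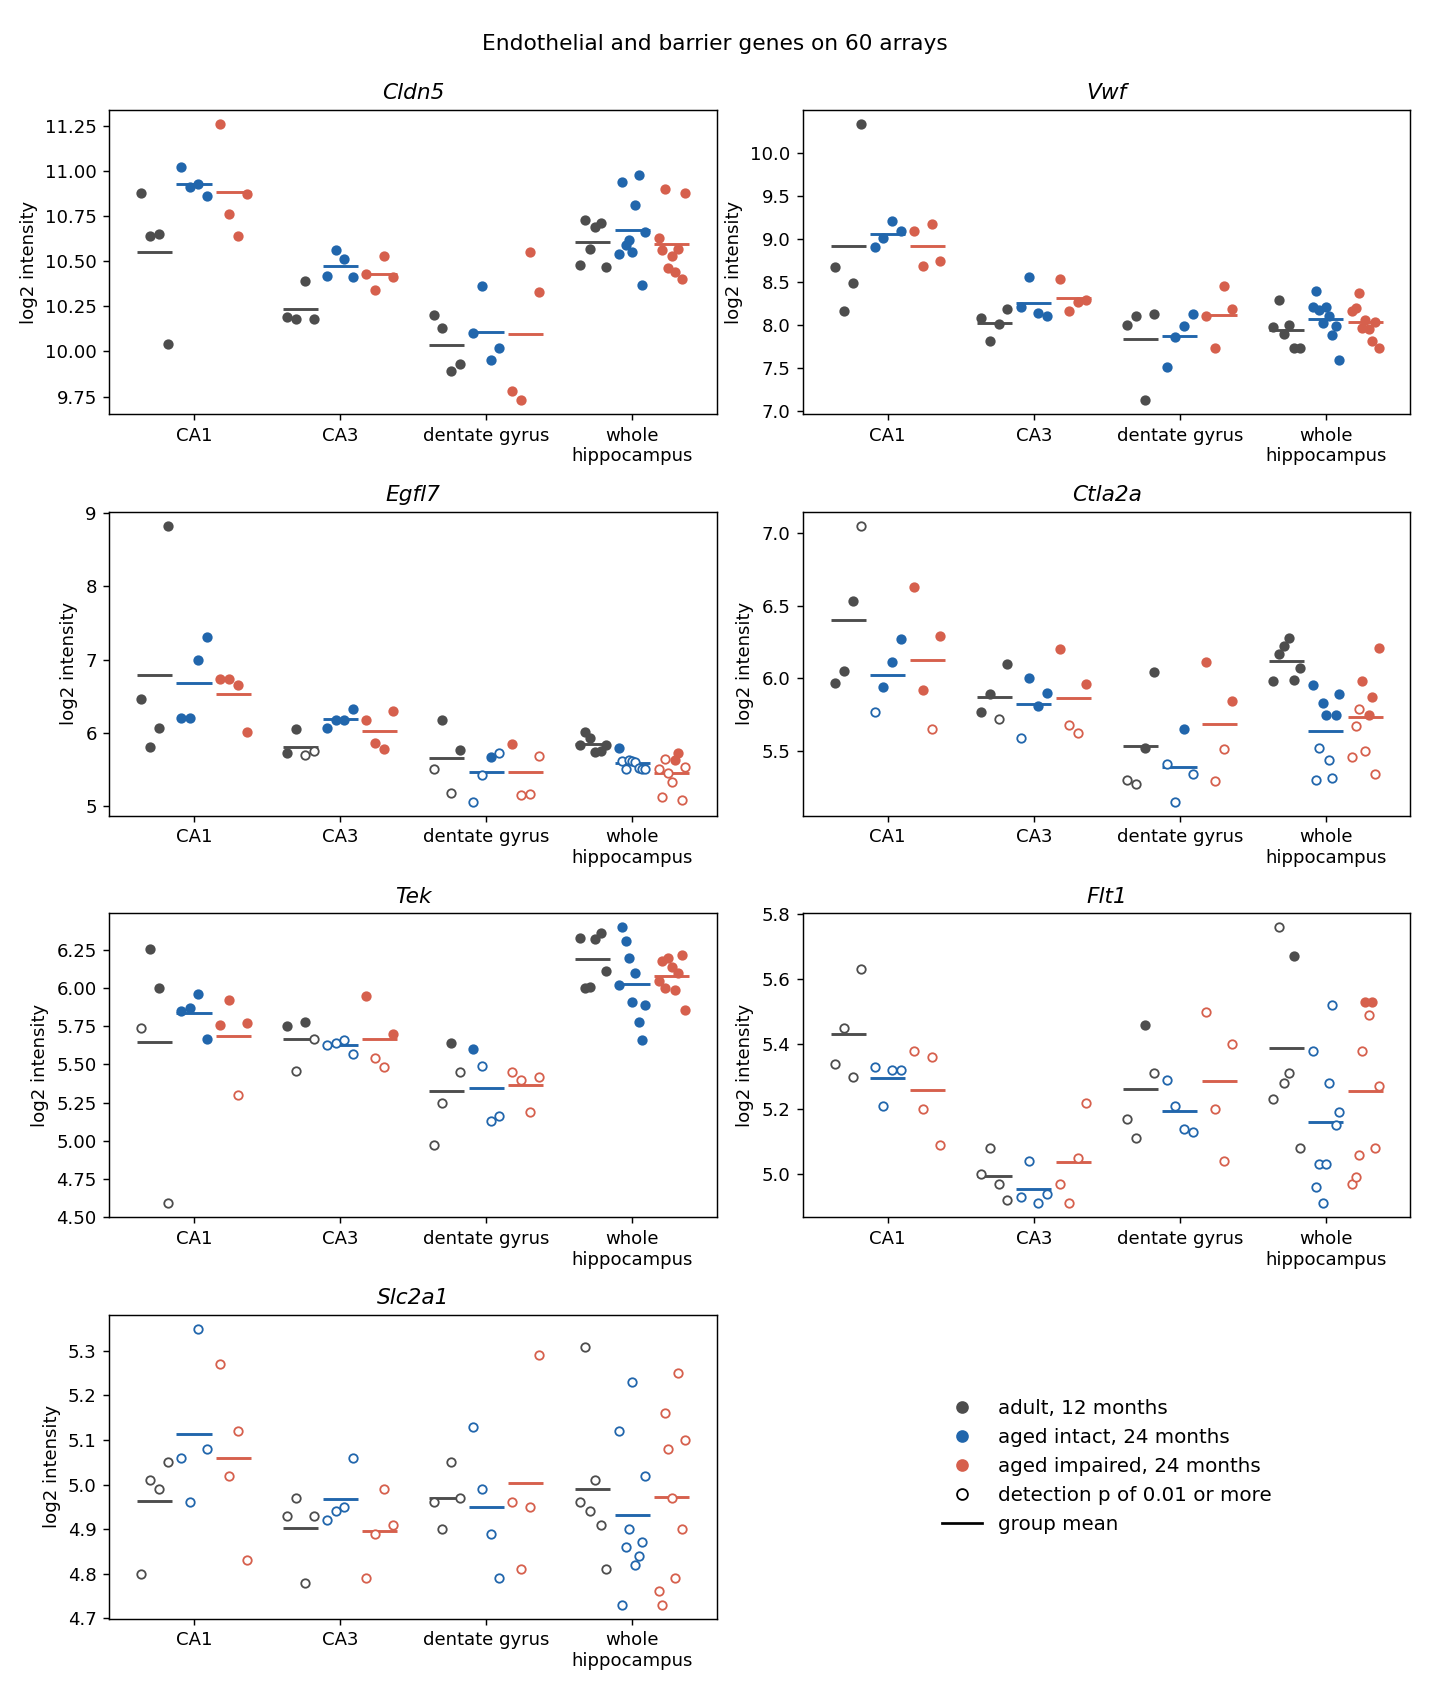
Log2 intensity (vertical axis, a scale of its own for each gene) of the 7 genes on all 60 arrays by region and group. Filled points are arrays on which the probe was detected, open points arrays on which it was not, and bars are group means. Cldn5 and Vwf are filled throughout, Slc2a1 is open throughout, and 1 adult CA1 array lies far from the rest for Egfl7, Vwf and Tek.

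Egfl7 and Ctla2a had the largest differences with age in whole hippocampus, where both were lower in aged rats, and both missed the threshold. The stretch of genome before an annotated start of each gene is shown because these were the members that differed most there. Both stretches lie inside the annotated span of the gene, which begins further upstream, at base 29802481 for Egfl7 and 3809052 for Ctla2a. Each line gives the 250 bases upstream of the annotated start from RefSeq on GRCr8, 5′ to 3′ on the strand of the gene, at chr3:29805381-29805630 (+) for Egfl7 and chr17:3809206-3809455 (+) for Ctla2a. Capitals mark the core of ETS factor sites (AGGAAG or CGGAAG) and the GC box GGGCGG, searched on both strands.
Egfl7: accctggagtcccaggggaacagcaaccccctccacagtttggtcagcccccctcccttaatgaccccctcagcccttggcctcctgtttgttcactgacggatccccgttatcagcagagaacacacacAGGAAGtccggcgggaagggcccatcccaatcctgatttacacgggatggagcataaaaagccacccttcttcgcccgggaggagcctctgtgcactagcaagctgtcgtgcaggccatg
Ctla2a: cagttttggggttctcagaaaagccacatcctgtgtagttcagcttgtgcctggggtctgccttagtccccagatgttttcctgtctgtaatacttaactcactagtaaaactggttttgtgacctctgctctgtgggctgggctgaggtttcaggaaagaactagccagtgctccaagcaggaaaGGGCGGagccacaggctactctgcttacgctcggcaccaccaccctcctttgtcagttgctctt
The Egfl7 stretch held 1 ETS core, and the Ctla2a stretch held 1 GC box and no ETS core. Over all 33469 rat promoter windows of 300 bases, which also take in the first 50 transcribed bases, 45.5% held an ETS core and 33.1% a GC box. Egfl7 has a second annotated start, and the window around it held 4 GC boxes and no ETS core. A match describes letters only.

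Egfl7 in whole hippocampus ran from 5.74 to 6.01 in adults (median 5.84, n = 6), from 5.5 to 5.79 in intact rats (median 5.6, n = 9) and from 5.09 to 5.72 in impaired rats (median 5.51, n = 9). All 18 aged arrays lay below the adult mean, and 17 of them below the lowest adult array, while 1 intact array lay within the adult range. Detection held on all 6 adult arrays, on 1 of the 9 intact and on 2 of the 9 impaired, so most aged values were not above background, and the probe met the filter of 6 detected arrays only through the adult group. The difference that follows is therefore of measured signals and not a fold change of the transcript. The mean of the aged groups was lower than the adult mean by 0.33, a difference of -0.33 ± 0.08 (SE; 95% interval -0.49 to -0.17), in a limma fit with slide as a term. Its unadjusted p was 0.000226, and its adjusted p of 0.061 missed the threshold of 0.05.

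Ctla2a was also higher in adult arrays than in both aged groups, whose medians were equal. Its adult arrays ran from 5.98 to 6.28 (median 6.12, n = 6), its intact arrays from 5.3 to 5.95 (median 5.75, n = 9) and its impaired arrays from 5.34 to 6.21 (median 5.75, n = 9). Of the 18 aged arrays, 17 lay below the adult mean and 16 below the lowest adult array, and the exceptions were 2 impaired arrays. Its probe passed detection on all 6 adult arrays, on 5 of the 9 intact and on 4 of the 9 impaired. The aged minus adult difference was -0.43 ± 0.11 (SE; interval -0.66 to -0.21), with a limma unadjusted p of 0.00054 and an adjusted p of 0.102.

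The samples of whole hippocampus were spread over 2 slides with all 3 groups on each. Within the first slide alone the aged minus adult difference was -0.39 for Egfl7 and -0.42 for Ctla2a, and within the second it was -0.28 and -0.45. The signals of both genes were thus lower in aged rats on each slide. The call itself depended on single arrays and weights. Egfl7 passed the threshold without impaired replicate 6 (limma adjusted p = 0.0486) or replicate 7 (0.0273), and Ctla2a without impaired replicate 9 (0.0407). Replicates 6 and 7 were the only impaired arrays with Egfl7 detected (5.63 and 5.72). Replicate 9 had the highest Ctla2a of all aged arrays (6.21). Leaving out high aged arrays lowers the aged mean, so these passes add no support for a difference. Both genes also passed with array weights estimated gene by gene (limma adjusted p = 0.0342 for Egfl7 and 0.00986 for Ctla2a). Those weights were added after the data were seen. The default weights, which stopped before converging, gave 0.0347 and 0.01. For Egfl7 each pass rests on a probe that met the filter only through its adult arrays.

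**Figure D2:**
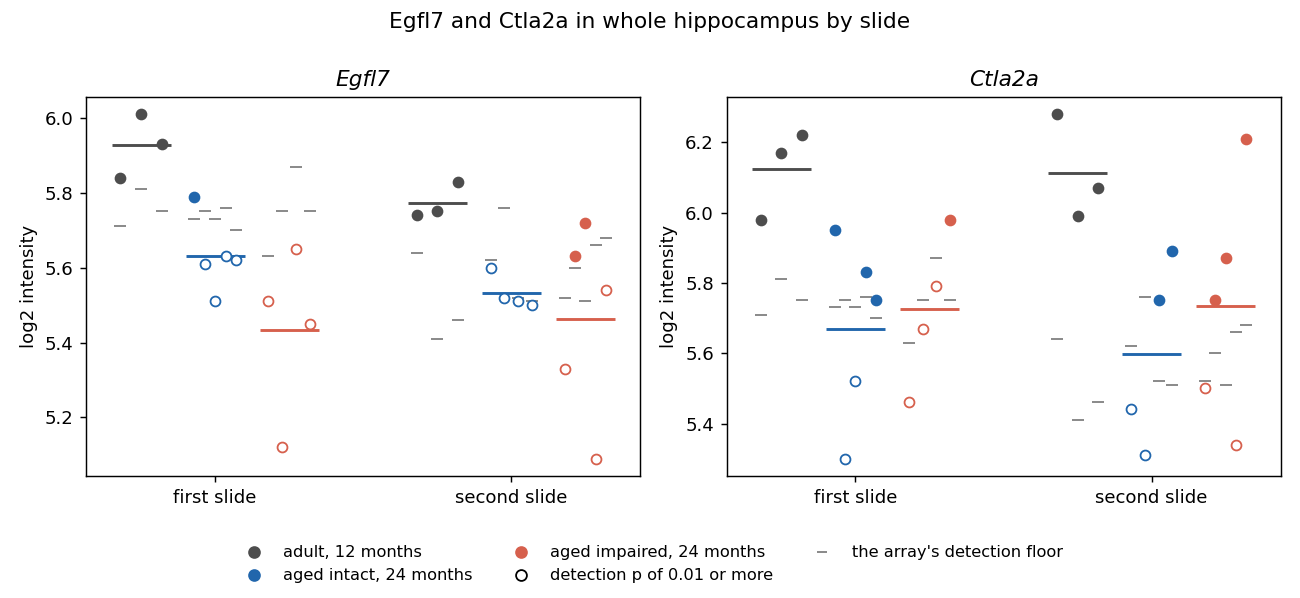
Log2 intensity (vertical axis) of Egfl7 and Ctla2a on the 24 whole hippocampus arrays, by slide and group. Filled points were detected, open points were not, bars are group means and grey dashes are the detection floor of each array. On both slides every adult point is filled, and most aged points are open for Egfl7.

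The other members had smaller differences in whole hippocampus. Cldn5 ran from 10.47 to 10.73 in adult, 10.37 to 10.98 in intact and 10.4 to 10.9 in impaired arrays, with medians of 10.63, 10.62 and 10.56. The adult range lay inside both aged ranges, and the difference was 0.03 ± 0.08 (SE; interval -0.15 to 0.2). Vwf ran from 7.73 to 8.29, 7.59 to 8.4 and 7.73 to 8.37 (medians 7.94, 8.11 and 8.04), and its difference was 0.11 ± 0.08 (interval -0.05 to 0.27). Tek, detected on all 24 arrays, ran from 6 to 6.36, 5.66 to 6.4 and 5.86 to 6.22 (medians 6.22, 6.02 and 6.1). Its difference was -0.13 ± 0.09 (interval -0.31 to 0.04), 0.02 on the first slide alone, so its direction was not stable between slides. None of the 5 tested members was called in aged against adult in whole hippocampus, where 0.318% of all 10370 tested probes were called. Of the 5, Egfl7 and Ctla2a had an unadjusted p under 0.05, both lower, against 2.12% of all tested probes. That count is no support for a direction, since Egfl7 was tested only because of its adult arrays.

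Some markers of other tissue and cells also differed there. Igf2, a growth factor gene expressed by meninges and choroid plexus, fell in aged whole hippocampus by 0.66 (difference -0.66 ± 0.14 SE, limma adjusted p = 0.0316), the only one called of 6 tested meningeal and fibroblast genes, of which 5 were below 0 with a median of -0.176. The summed linear intensity of that list's 12 probes ran from 2677 to 3604 in adult, 1906 to 3200 in intact and 2197 to 2764 in impaired arrays, with Col1a1 not detected on any array. All 4 tested choroid plexus genes were below 0 and none was called, down to -1.76 for Ttr, the transthyretin gene (limma adjusted p = 0.414).

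On 1 array, whole hippocampus adult replicate 6, the choroid plexus sum was 16451, against an adult median of 6228 and ranges of 5093 to 7257 in intact and 5176 to 7544 in impaired arrays. Without it the differences were -0.46 for Igf2, no longer called (limma adjusted p = 0.0789), -0.84 for Ttr (0.999), -0.33 for Egfl7 (0.187) and -0.44 for Ctla2a (0.259). All 8 tested microglial genes were above 0, and Trem2, a microglial receptor, rose by 0.37 (0.0315), a call also lost without that array (0.117). Their summed intensity ran from 3777 to 4475 in adult, 4230 to 5396 in intact and 4568 to 11055 in impaired arrays. The value of 11055 was that of impaired replicate 5 alone, and the next highest impaired array had 5901. The medians were 4203 in adult, 5060 in intact and 5038 in impaired arrays. Within groups and slides, the residuals of Egfl7 and Igf2 had a Pearson correlation of -0.07 over the 24 arrays, and those of Ctla2a and Igf2 also -0.07. The part of such tissue and cells in the members' differences was not tested.

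In CA3 the values of Cldn5, Vwf and Egfl7 were higher in aged arrays, again short of the threshold. Cldn5 was 10.19, 10.18, 10.39 and 10.18 on the 4 adult arrays, 10.42, 10.56, 10.51 and 10.41 on the intact arrays and 10.43, 10.34, 10.53 and 10.41 on the impaired arrays. All 8 aged arrays lay above the adult mean, and 7 above the highest adult array. The difference was 0.22 ± 0.07 (SE; interval 0.08 to 0.36), a 1.16-fold change, with a limma adjusted p of 0.162.

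Vwf in CA3 was 8.08, 7.82, 8.01 and 8.19 in adult, 8.21, 8.56, 8.14 and 8.11 in intact and 8.53, 8.16, 8.27 and 8.29 in impaired arrays. All 8 aged arrays were above the adult mean, and 5 were above the highest adult array. The difference was 0.26 ± 0.1 (SE; interval 0.05 to 0.47; limma adjusted p = 0.265).

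Egfl7 in CA3 was 5.72, 6.05, 5.7 and 5.75 in adult, 6.06, 6.18, 6.18 and 6.32 in intact and 6.18, 5.86, 5.78 and 6.3 in impaired arrays. Detection held on 2 of the 4 adult and on all 8 aged arrays. The 4 intact arrays were above every adult array, while 2 impaired arrays lay within the adult range. The difference was 0.3 ± 0.1 (SE; interval 0.08 to 0.53; limma adjusted p = 0.219).

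Ctla2a in CA3 had a difference of -0.02 ± 0.12 (SE; interval -0.27 to 0.23). Tek was not detected on any CA3 intact array, so that group gives only a bound and no difference is given. None of the 5 tested members was called in CA3, where 0.912% of 9873 probes were. Of the 5, 3 had an unadjusted p under 0.05, all higher, against 7.32% of all tested probes. Egfl7, 1 of these 3, met the detection filter in CA3 only through its aged arrays, so that count is no support for a direction. In CA3 all arrays shared a slide on which position followed group, so position and group cannot be told apart, as in CA1 and DG.

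Some markers of other cells also changed with age in CA3. All 7 tested microglial genes were above 0 and 4 of them rose (C1qa, C1qb, C1qc and Trem2, parts of complement and a microglial receptor), and their summed linear intensity ran from 4539 to 4899 in adult, 6345 to 6894 in intact and 5777 to 6306 in impaired arrays. Of 7 meningeal and fibroblast genes, Ogn, which codes for the matrix protein osteoglycin, rose by 0.45 (limma adjusted p = 0.0471), while 4 were below 0. Of 10 neuronal genes, Syn1, a synaptic vesicle protein gene, fell by 0.37 (0.0471), and 7 were below 0. Of 8 tested pericyte and smooth muscle genes 7 were above 0 and none was called. Their part in the CA3 values of the members was not tested.

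In CA1 the values turned on the array that stood apart. Cldn5 was 10.88, 10.64, 10.65 and 10.04 in adult, 11.02, 10.91, 10.93 and 10.86 in intact and 11.26, 10.76, 10.64 and 10.87 in impaired arrays. All 8 aged arrays were above the adult mean, and 4 were above the highest adult array. The difference was 0.36 ± 0.18 (SE; interval -0.03 to 0.74; limma adjusted p = 0.63), and 0.19 without adult replicate 4 (adjusted p = 0.385).

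Vwf in CA1 was 8.67, 8.16, 8.49 and 10.33 in adult, 8.91, 9.01, 9.21 and 9.09 in intact and 9.09, 8.68, 9.17 and 8.74 in impaired arrays. The 8 aged arrays lay above 3 of the 4 adult arrays and below the fourth. Its difference was 0.07 ± 0.33 (SE; interval -0.65 to 0.79) and 0.55 without that array (limma adjusted p = 0.168).

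Egfl7 in CA1 was 6.46, 5.81, 6.07 and 8.83 in adult, 6.2, 6.2, 6.99 and 7.31 in intact and 6.73, 6.74, 6.65 and 6.01 in impaired arrays. Its difference was -0.19 ± 0.49 (SE; interval -1.25 to 0.88) and turned to 0.49 without adult replicate 4 (limma adjusted p = 0.266). Ctla2a had a difference of -0.33 ± 0.24 with the array and -0.11 without it, and Tek 0.12 ± 0.27 with it and -0.24 without it. None of the 5 was called in CA1, with or without the array, where 0.0501% of 9978 probes were called in the fit of all 12 arrays.

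DG gave no member a clear direction with age. Cldn5 was 10.2, 10.13, 9.89 and 9.93 in adult, 10.1, 10.36, 9.95 and 10.02 in intact and 9.78, 9.73, 10.55 and 10.33 in impaired arrays, so the impaired arrays spanned both other groups. Its difference was 0.07 ± 0.16 (SE; interval -0.27 to 0.4). Vwf ranged from 7.13 to 8.45 over the 12 arrays, with a difference of 0.16 ± 0.19 (interval -0.26 to 0.58). Egfl7 and Ctla2a were detected on only 4 and 5 of the 12 arrays and differed by -0.2 ± 0.2 (interval -0.62 to 0.23) and 0 ± 0.18 (interval -0.37 to 0.38). Tek was detected on 2 arrays and was not tested. None of the 4 tested members was called, and 0.0296% of 10152 probes were.

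Between aged rats labelled impaired and intact no difference of these genes passed the threshold. No member was called in any region by limma, as no probe at all was (0% called in each of the 4 regions), and 0 members had an unadjusted p under 0.05. At that unadjusted threshold 0.15% of all tested probes were higher and 0.18% lower in CA1, and 2.13% and 2.94% in CA3. The shares were 1.04% and 0.887% in DG, and 2.78% and 3.01% in whole hippocampus. With shares this small, a count of 0 among so few members says little about them. The largest difference was that of Ctla2a in DG, where impaired arrays were 6.11, 5.29, 5.51 and 5.84 and intact arrays 5.41, 5.15, 5.65 and 5.34, and the groups overlapped. That difference was 0.3 ± 0.2 (SE; interval -0.13 to 0.74; limma adjusted p = 0.894). Its probe was detected on 2 of those 4 impaired and 1 of those 4 intact arrays, so most of these values were not above background. In whole hippocampus Egfl7 was detected on 1 of 9 intact and 2 of 9 impaired arrays, too few to compare those groups. There the other 4 members had intervals within -0.25 to 0.32.

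**Figure D3:**
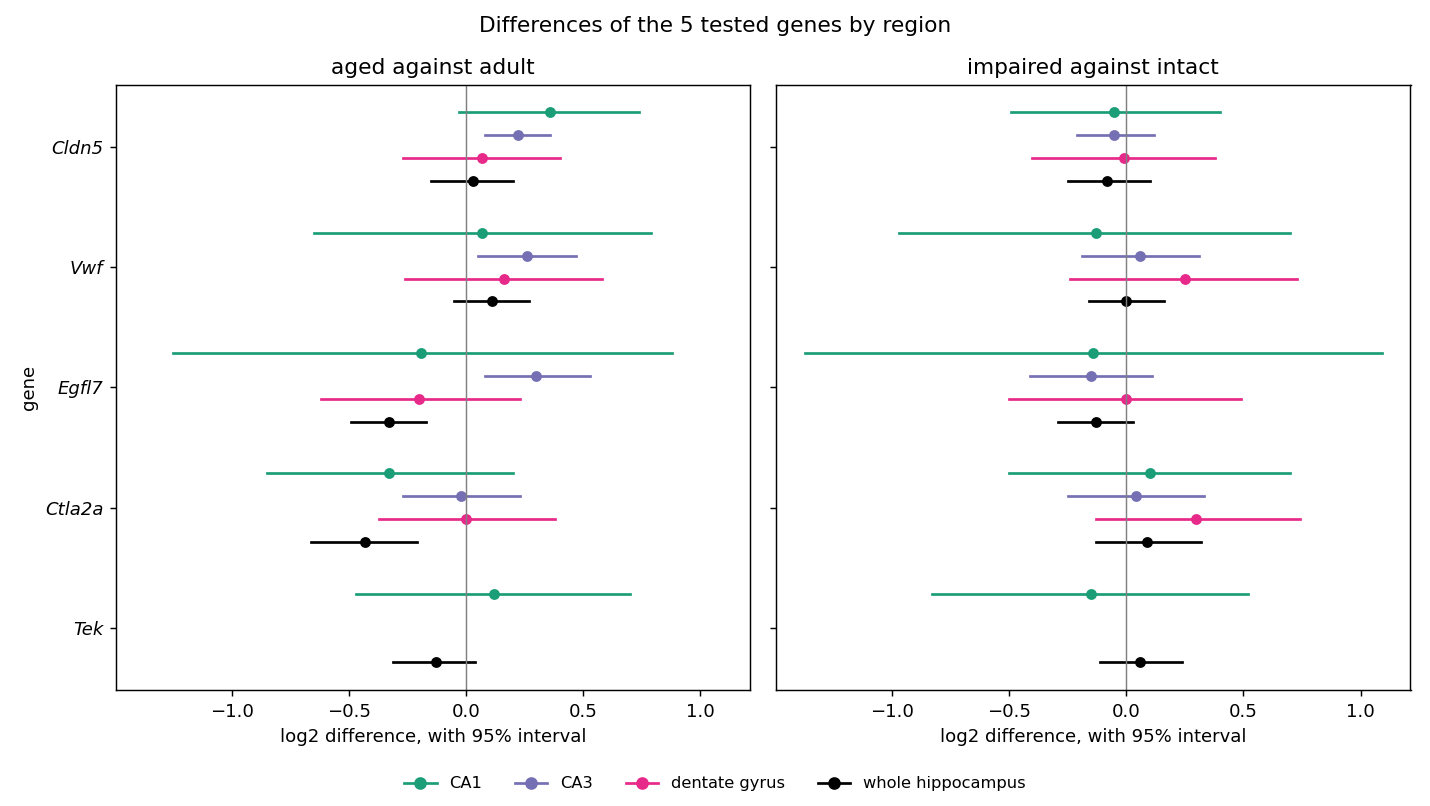
Log2 differences (horizontal axis) of the 5 tested genes with 95% intervals, for aged against adult and impaired against intact, in CA1, CA3, DG and whole hippocampus. Intervals that leave out 0 are those of Cldn5, Vwf and Egfl7 in CA3 and of Egfl7 and Ctla2a in whole hippocampus, all in aged against adult and none past the adjusted threshold. In both panels the CA1 interval is the widest for each gene. Tek is left out in CA3 and DG, where a group had no detected array, and Egfl7 in whole hippocampus rests on aged arrays that were mostly not detected.

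Whether the change with age differed between CA1, CA3 and DG was tested by an F test in 1 limma fit of the 36 arrays, in which the members' adjusted p ran from 0.772 to 0.94. None of the 5 tested was called, against 0.00915% of 10927 probes. Egfl7 went in opposite directions in whole hippocampus and CA3, and the difference of those changes, a comparison chosen after the values were seen, was -0.63 ± 0.13 (SE; interval -0.9 to -0.37), with most aged whole hippocampus values not above background. Its unadjusted limma p was 2.48e-05 and its adjusted p over 10664 probes was 0.155, and 0% of those probes were called. On the CA3 side, the probe was detected on 2 of the 4 adult arrays. Against the changes in CA1 and DG, the whole hippocampus change of Egfl7 differed by -0.14 ± 0.38 and -0.14 ± 0.18 (SE).

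Cldn5, Vwf and Egfl7 were higher in CA1 than in CA3 and DG. The F test called all 5 tested members, and it called 56.9% of all 10927 probes. Pairwise, 3 of the 5 were called in CA1 against CA3 (29.6% of all probes), 5 of 5 in CA1 against DG (44%) and 3 of 5 in CA3 against DG (39.5%). In DG, Egfl7, Ctla2a and Tek were detected on 4, 5 and 2 of 12 arrays. Their calls against DG thus rest on DG signals mostly not above background. Tek was detected on only 4 of 12 arrays in CA3 too. Being higher in CA1 than in both other subregions was rarer, and held for 3 of the 5 members and 6.37% of all probes. CA1, CA3 and DG were hybridised on separate slides, and the effects of region and of slide cannot be told apart.

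Cldn5 averaged 10.79 ± 0.3 in CA1, 10.38 ± 0.13 in CA3 and 10.08 ± 0.25 in DG (SD, n = 12 each). CA1 was above CA3 by 0.41 ± 0.09 (SE; limma adjusted p = 0.00128) and above DG by 0.71 ± 0.09 (2.77e-07), and CA3 was above DG by 0.3 ± 0.09 (0.0111). Without CA1 adult replicate 4 the CA1 differences were 0.46 and 0.76. The 12 CA3 arrays ran from 10.18 to 10.56, and 11 of the CA1 arrays lay above them, from 10.64 upwards. Whole hippocampus, on slides of its own and in no test against the subregions, averaged 10.63 ± 0.17 (SD, n = 24).

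Vwf averaged 8.96 ± 0.53 in CA1, 8.2 ± 0.2 in CA3, 7.94 ± 0.35 in DG and 8.02 ± 0.21 in whole hippocampus. CA1 exceeded CA3 by 0.77 ± 0.16 (SE; limma adjusted p = 0.000436) and DG by 1.02 ± 0.16 (4.74e-06), or by 0.61 and 0.86 without CA1 adult replicate 4. CA3 and DG, neighbours in that order, differed by 0.25 ± 0.16, which was not past the threshold (0.222) until CA1 adult replicate 4 was left out (0.0345).

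Egfl7 averaged 6.67 ± 0.81 in CA1, 6.01 ± 0.23 in CA3, 5.53 ± 0.34 in DG and 5.6 ± 0.22 in whole hippocampus, and was detected on 12, 10, 4 and 9 arrays, so the DG and whole hippocampus levels are mostly not above background. CA1 was above CA3 by 0.66 ± 0.22 (SE; limma adjusted p = 0.0221) and above DG by 1.14 ± 0.22 (8.89e-05). Without CA1 adult replicate 4 these were 0.43 (0.00975) and 0.91 (9.41e-07), and the CA3 minus DG difference of 0.48 passed the threshold (0.00243 against 0.0837 with it).

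Ctla2a averaged 6.18 ± 0.4 in CA1, 5.85 ± 0.19 in CA3, 5.53 ± 0.31 in DG and 5.79 ± 0.3 in whole hippocampus. Its CA1 minus DG difference was 0.65 ± 0.13 (SE; limma adjusted p = 0.000118), and its CA1 minus CA3 difference of 0.33 had an adjusted p of 0.0503, which ran from 0.0236 to 0.106 as single arrays were left out. The CA3 minus DG differences of Ctla2a (0.32, limma adjusted p = 0.0467) and Tek (0.31, 0.0468) sat at the threshold too, with ranges of 0.0156 to 0.0956 and 0.00159 to 0.0927. Without CA1 adult replicate 4, CA1 minus DG was 0.58 for Ctla2a. Tek averaged 5.72 ± 0.42 in CA1 and 5.65 ± 0.14 in CA3, which differed by 0.07 ± 0.12, and 5.34 ± 0.2 in DG, a signal below that of CA1 (limma adjusted p = 0.0135). Tek was detected on 9, 4 and 2 of 12 arrays in CA1, CA3 and DG, so its DG level is mostly a bound and it met the filter through CA1 and CA3. Ctla2a in DG was detected on 5 of 12 arrays. The F test call of Tek (limma adjusted p = 0.0211) was lost in 2 other settings, without background correction (0.114) and without DG adult replicate 1 (0.051). Its whole hippocampus mean was 6.09 ± 0.19, with every array detected there and 15 of 36 in the subregions.

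Several other genes, vascular and not, were also higher in CA1. In the list of other endothelial genes 13 of 29 tested were higher in CA1 than in both CA3 and DG (44.8%, against 6.37% of all probes), 1 was highest in CA3 and 1 in DG. The list's median CA1 minus DG difference was 0.544, and that of all probes -0.034. Among its defining markers, Emcn, an endothelial surface sialomucin, was above CA3 by 0.43 and above DG by 0.79. Sox17, an endothelial transcription factor, was above them by 0.52 and 0.64, and Nos3, the nitric oxide synthase of endothelium, by 0.49 and 0.71 (limma adjusted p between 7.26e-09 and 0.000917 for these 6 differences). Icam2 and Tie1 were above DG by 0.72 and 0.47 and not called against CA3. On CA1 adult replicate 4 Icam2 was 5.18 and this Tie1 probe 4.65, against 6.57 to 7.42 and 5.88 to 6.89 on the other 11 CA1 arrays. A second Tie1 probe averaged 6.42 in CA1, 5.91 in CA3 and 6.12 in DG, and was 7.52 on that array. Of the pericyte and smooth muscle genes 7 of 9 were higher in CA1 than in both others, with a median CA1 minus DG difference of 0.845. Lists of other tissue and cells differed in their shares. Being higher in CA1 than in both others held for 3 of 7 meningeal and fibroblast genes (42.9%, median CA1 minus DG difference 0.853). It held for 3 of 10 astrocyte endfoot genes (30%), 1 of 9 microglial genes (11.1%) and 0 of 4 choroid plexus genes. Dcn, a fibroblast matrix gene singled out after its value was seen, was above CA3 by 2.1 and above DG by 2.23. Lum, of the same list and also picked with its value in view, went the other way against CA3. Its CA1 minus CA3 and CA1 minus DG differences were -2.95 and 0.39, and it was the 1 of the 7 genes highest in CA3. Without CA1 adult replicate 4, the endothelial count was 17 of 29 and that of all probes 10.1%.

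Of 17 tested carriers and efflux pumps 4 were higher in CA1 than in both other subregions, and 1 of 9 junction genes was (5 and 3 without CA1 adult replicate 4). Abcb1b, an endothelial list gene singled out after its value was seen, codes for a paralog of the drug efflux pump Abcb1a. Its CA1 minus CA3 and CA1 minus DG differences were -1.79 and -2.7 (limma adjusted p = 1.32e-13 and 2.14e-18). Haemoglobin transcripts, which mark blood left in vessels, had means in the order of the endothelial genes: Hbb averaged 12.14, 11.83 and 11.55 and Hba-a2 12.43, 11.83 and 11.64 in CA1, CA3 and DG. CA1 minus DG was called for both (limma adjusted p = 0.0341 and 0.00106), CA1 minus CA3 for Hba-a2 only (0.0166 against 0.303) and CA3 minus DG for neither. On CA1 adult replicate 4 Hbb was 9.95, the lowest of the CA1 arrays, and Hba-a2 13.68, the highest. Pan-neuronal genes had a median CA1 minus CA3 difference of -0.571 and none of 10 was highest in CA1. Their part in the members' order was not tested.

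**Figure D4:**
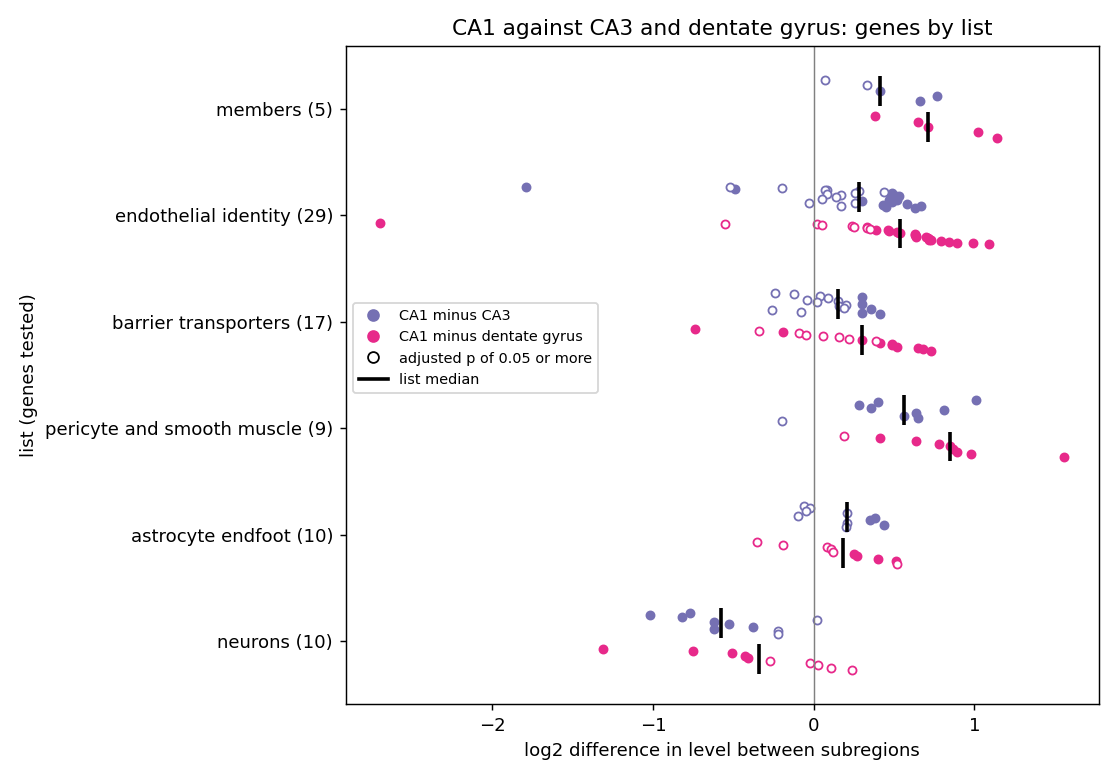
Log2 differences in level (horizontal axis) of CA1 minus CA3 and CA1 minus DG for the genes of 6 lists, with the number tested in brackets. Filled points passed an adjusted p of 0.05 in the fit of 36 arrays, open points did not, and black bars are list medians. Both medians lie above 0 for the 5 lists of members, other endothelial genes, transporters, mural cells and astrocyte endfeet, and below 0 for neurons.

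With age, 1 gene of the other vascular lists passed the threshold. Anxa3, an annexin in the list of other endothelial genes, rose in CA3 by 0.51 ± 0.07 (SE; limma adjusted p = 0.0019). It was the only gene called in either contrast in any region among the 10 vascular and barrier lists. In the same contrast C1qa and Trem2 of the microglial list rose by 0.51 and 0.52. Which cells the Anxa3 change came from was not tested. The Anxa3 differences in CA1 and whole hippocampus were 0.51 ± 0.15 and 0.36 ± 0.16, with limma adjusted p of 0.63 and 0.819. In whole hippocampus 20 of 28 other endothelial genes were below 0, with a median of -0.105 against -0.006 for all probes. An unadjusted p under 0.05 was reached by 7 that were lower and 1 that was higher (Anxa3), against 2.12% and 3.54% of all tested probes. In CA3 they divided 14 above and 13 below 0 with a median of 0.036 against 0.002. The 13 tested ligands, receptors and partners of the VEGF and angiopoietin systems had medians of -0.026 in CA3 and -0.013 in whole hippocampus, and none of them was called. The 17 transporters tested in whole hippocampus had a median of -0.011, and the 8 junction genes 0.024.

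From array to array within groups, the members' correlations with one another were of mixed sign. The correlation of each with the mean of the other 4, after removal of region, group and slide means, ran from -0.62 for Tek to 0.42 for Vwf over 60 arrays and from -0.24 to 0.3 without CA1 adult replicate 4. Egfl7 and Vwf had the highest pairwise correlation, 0.74, and 0.4 without that array. Over the 24 whole hippocampus arrays alone that pair had -0.05, and the highest was 0.44 for Ctla2a and Egfl7. The genes whose residuals were most like the members' mean were Metrn, Rhoc and Cd63 (Pearson r of 0.81, 0.8 and 0.8 over 60 arrays, 0.68, 0.67 and 0.66 without that array). These are descriptions over arrays that share slides and depth of detection.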

How the data were processed

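Per the file headers, the deposited non-normalized table gives every probe's average signal on each array, a linear intensity, beside its detection p-value. The deposited processed table holds a second linear intensity, and the software behind it was not given in the sources used here. Per the labels, total RNA was Trizol-extracted, column-cleaned and made into biotinylated cRNA. The arrays' median raw signals lay between 54.45 and 128.46, and the number of arrays limits the precision.

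Raw signals were background corrected with limma 3.58.1 (neqc in R 4.3.3, offset 16, background estimated through the detection p-values), quantile normalized over all 60 arrays and put on log2. Probes detected on at least 4 arrays of a subregion, or 6 of whole hippocampus, were tested per region with lmFit and eBayes, with a slide term for whole hippocampus only. Aged is the mean of intact and impaired. Levels and changes between subregions came from F tests on 36 arrays, for probes detected on at least 4. All tests were two-sided, and p-values were adjusted by Benjamini-Hochberg over all tested probes (threshold 0.05), and the fits were tested on simulated data. Probe symbols were updated with a RefSeq gene table (GRCr8). Of 8 promoter windows for the members, covering 7 of the 10 genes, 2 are shown. Python 3.11.15, pandas 2.3.3 and matplotlib 3.10.9 made tables and figures.

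The members and lists were chosen with earlier results of these data known. Genes were named by a rule (all members, list genes called in either contrast, fixed cell type markers, and the genes most like the members' mean). Abcb1b, Dcn, Lum and the genes of the closing observations fall outside it, picked with their values in view. Alternatives were other background corrections, the processed values, other filters, 1 fit over all arrays, array weights, a replicate block, and leaving out arrays or slides.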

Additional observations from a re-analysis of the deposited data

Results flagged for a closer look

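For the 7 genes with a probe, 84 sets of arrays (1 gene in 1 group) were screened for an array far from the others by Dixon's gap test, and 6 were found, when chance gives about 1 in 20. In CA3, Cldn5 was 10.39 on adult replicate 3 against 10.18 to 10.19 on the other 3, and Egfl7 was 6.05 on adult replicate 2 against 5.7 to 5.75. Both lie on the side of the aged arrays. Egfl7 was also low on CA1 impaired replicate 4, at 6.01 against 6.65 to 6.74, and high on whole hippocampus intact replicate 1, at 5.79 against 5.5 to 5.63. Vwf was 7.13 on DG adult replicate 3 against 8 to 8.13. Flt1 was 5.21 on CA1 intact replicate 2 against 5.32 to 5.33, where its probe was not detected on any of the 4 arrays.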

How the results depend on the processing

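Most values kept their direction and their side of the threshold: 2091 recomputed values did, 69 turned sign, 28 passed the threshold that the reported value missed, 51 lost it and 8 counts moved by over 1.5 times. The cause was not tested unless stated. No member was called in impaired against intact, in aged against adult in CA3 and DG, or in the difference of change between subregions under any alternative. In aged against adult, 1 member was called in CA1 by 1 fit over all arrays (Cldn5, 0.36, limma adjusted p = 0.0467) and 1 by array weights estimated gene by gene (Vwf, 0.47, 0.0221). In whole hippocampus 2 were called by both kinds of array weights, and 0 to 1 as single arrays were left out (1 without impaired replicate 6, 7 or 9). The default weights stopped before converging in CA1 and whole hippocampus, and the gene by gene weights were added after seeing the data. Over the arrays left out, Egfl7 in whole hippocampus ran from -0.35 to -0.31 and Ctla2a from -0.47 to -0.4, and over the other alternatives from -0.49 to -0.18 and from -0.59 to -0.24. The F test of level between subregions called 2 members when detection on all 36 arrays was required, since fewer were tested, 6 with no detection filter (the sixth was Flt1, whose probe gives only a bound), and 4 to 5 as single arrays were left out, of which 35 were added after seeing the data. Higher levels in CA1 than in both others, also recomputed after seeing the data, held for 4 of 5 members and 10 of 29 endothelial genes in the processed values (all probes 6.67%), and for 3 of 5 and 12 of 29 without background correction (6.19%).

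Sign changes, none of them in a called value, were as follows (those of Tek in CA3 are of signals that give only a bound). For aged against adult in CA1, Egfl7 was 0.16 in the processed values and 0.45 and 0.47 with the default and gene by gene weights, and Tek was -0.15 and -0.16 with those weights. In whole hippocampus Cldn5 was -0.04 with both weights, and Tek 0.02 on the first slide alone. For impaired against intact the default and gene by gene weights gave Egfl7 0.16 and 0.14 in CA1, Tek 0 and 0 in CA3, Cldn5 0.15 and 0.16 in DG, and Ctla2a -0.02 and -0.03 and Vwf 0.02 and 0.02 in whole hippocampus. There Tek was -0.02 in the processed values and -0.06 on the first slide, and Vwf 0.03 on the second. As single arrays were left out, aged against adult ran in CA1 from -0.18 to 0.55 for Vwf, -0.52 to 0.49 for Egfl7 and -0.24 to 0.32 for Tek, in CA3 from -0.09 to 0.02 for Tek and -0.08 to 0.05 for Ctla2a, in DG from -0.08 to 0.17 for Ctla2a, -0.08 to 0.25 for Vwf and -0.01 to 0.13 for Cldn5, and in whole hippocampus from 0 to 0.05 for Cldn5. Impaired against intact ran in CA1 from -0.3 to 0.07 for Egfl7, -0.07 to 0.26 for Ctla2a and -0.17 to 0.03 for Cldn5, in CA3 from -0.07 to 0.12 for Ctla2a, -0.05 to 0.1 for Tek and -0.01 to 0.16 for Vwf, in DG from -0.16 to 0.11 for Cldn5 and -0.14 to 0.1 for Egfl7, and in whole hippocampus from -0.05 to 0.03 for Vwf.

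Arrays of the same replicate number were correlated between the groups of a region. The values lay between -0.4 and 0.23 in CA1 and between -0.46 and 0.31 in CA3. They lay between -0.6 and 0.21 in DG and between -0.23 and 0.25 in whole hippocampus. Such arrays carry different group labels, so these values cannot show whether samples of the same rat were paired. Whether CA1, CA3 and DG arrays of the same number came from the same rat was not tested. With a replicate block, whole hippocampus Egfl7 was -0.35 (limma adjusted p = 0.19) and Ctla2a -0.52 (0.0771), 0 members were called in each contrast and 5 in the level between subregions. Signal over background limits Egfl7, Ctla2a and Tek, which were near the detection floor on many arrays.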

Other observations

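Vessel-related lists beside the members differed in how their levels were ordered between subregions. Of the 13 tested genes of the VEGF and angiopoietin systems, 3 were higher in CA1 than in both CA3 and DG (23.1%, against 6.37% of all probes). They were Plxnd1, a semaphorin receptor of endothelium and neurons, Notch1, a receptor of the Notch pathway, and Vegfa, a growth factor for vessels. Plxnd1 was above CA3 by 2.04 and above DG by 2.34 on the log2 scale, and Notch1 by 0.32 and 0.69. Vegfa was above them by 0.33 and 0.31 (limma adjusted p = 0.0103 and 0.011). Nrp1, a coreceptor for VEGF, went the other way, with differences of -0.43 and -0.39.

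Of 13 basement membrane genes 3 (23.1%) were higher in CA1 than in both others. They were Fn1 (fibronectin; 0.66 and 1.39), the protease gene Mmp9 (0.97 and 1.09) and Nid2 (nidogen; 0.38 and 0.62). Lamb1, a laminin chain, was lower in CA1 than in DG by a difference of -0.87. Of 9 genes of leukocyte adhesion 2 were higher in CA1 than in both others and 1 in DG. Plvap, the diaphragm protein of leaky capillaries, was above CA3 by 0.61 and above DG by 1.13, while Cxcl12, a chemokine gene, had a CA1 minus DG difference of -2.53. Without CA1 adult replicate 4 the counts higher in CA1 were 4 of 13 for the VEGF and angiopoietin systems and 8 of 13 for the basement membrane, against 10.1% of all probes. The genes named here were chosen after their values were seen.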
